A study of Mus musculus with 36 samples.

Results

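Transcripts of 9 genes of hepatic glucose production and its control were followed in mouse liver over the day, in the presence and absence of the thyroid hormone receptor beta (THRB). The genes were Gckr, G6pc, Pck1, Pcx, Fbp1, Slc2a2, Slc37a4, Pklr and Pfkfb1, taken by gene name from a table of 54532 genes, of which 17994 had at least 100 counts over all libraries and were tested. All 9 genes passed that minimum, and each had at least 264 counts in every library. The livers came from male mice of 2 to 3 months on the C57Bl/6NCrl background, fed regular chow freely under a 12 h light and 12 h dark cycle. Control mice, labelled WT, were heterozygous (THRB+/-), so that they too carried 1 altered allele. Knockout mice, labelled KO, were THRB-/- and carried the B6.129S1-Thrbtm1Df allele, which impairs DNA binding by both THRB isoforms in every tissue and not in hepatocytes alone. For each genotype, 3 mice were sampled at each of 6 zeitgeber times (ZT, hours after lights on), ZT2, ZT6, ZT10, ZT14, ZT18 and ZT22, which gave 12 groups of 3 and 36 libraries.

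The liver keeps blood glucose steady by making and releasing glucose between meals and by taking it up and breaking it down after meals. Gluconeogenesis starts with Pcx (pyruvate carboxylase) and Pck1 (phosphoenolpyruvate carboxykinase), passes Fbp1 (fructose-1,6-bisphosphatase), and ends when Slc37a4 carries glucose-6-phosphate into the endoplasmic reticulum and G6pc (the catalytic subunit of glucose-6-phosphatase) releases free glucose. Slc2a2 encodes GLUT2, the transporter through which hepatocytes take up and export glucose. Gckr encodes a regulatory protein of hepatic glucose metabolism. In the opposite direction, Pklr encodes the liver pyruvate kinase, the last enzyme of glycolysis, and Pfkfb1 the liver enzyme that makes and removes fructose-2,6-bisphosphate, which activates phosphofructokinase and inhibits fructose-1,6-bisphosphatase. Fasting hormones that act through cAMP raise Pck1 and G6pc transcription, insulin lowers both, and thyroid hormone is a known inducer of hepatic glucose production.

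The libraries held 29063273 to 42530551 counts, and the values below are CPM (each count relative to its library, scaled by TMM library sizes to a common total). The 5 hepatocyte markers summed to 62849.7 to 93761 CPM, and those of the kidney tubule, the other organ that makes glucose, to at most 0.0672 CPM. Markers of Kupffer cells, endothelial cells, cholangiocytes, stellate cells, lymphocytes, pancreatic acinar cells and adipocytes summed to between 4.84 and 438 CPM per list. Only Cela1 of the acinar list (27.2 CPM) and Fabp4 of the adipocyte list (8.61 CPM) were above 1 CPM on average. Of these 9 lists of 5 genes, none held a gene called between the genotypes. Dio1, the deiodinase that thyroid hormone induces through THRB, was lower in the knockout livers (log2 fold change -0.97, SE 0.14, edgeR quasi-likelihood adjusted p = 4.19e-05). Thrb itself stood at 28.9 ± 3.69 CPM in control and 31.5 ± 2.70 CPM in knockout livers (SD, n = 18 each), and this count over the whole gene does not single out the altered part, so that it does not check the label. The labels tell the 3 mice of a group apart by the letters a, b and c and by a library number whose meaning they do not give. In bulk liver a change in cell number and a change in RNA per cell cannot be told apart.

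The promoters of 4 members are shown because Pck1 and G6pc are known targets of cAMP and insulin, and because Pck1, Slc2a2 and Slc37a4 rose together in the light phase. The windows run from 250 bases before to 50 bases after a start site, are RefSeq sequences of GRCm38.p6, and read 5′ to 3′ on the strand of the gene. RefSeq gave 16 windows for the 9 genes, and for genes with several the one nearest to the start in the count table is printed. Capitals mark exact matches, on either strand, to CACGTG (canonical E-box), TGACGTCA (full cAMP response element), TGACG (its half-site, which lies inside the full element), AGGTCA (nuclear receptor half-site), TGTTTAC (forkhead motif) or CAAAACA (core of the insulin response sequence).
Pck1 promoter, chr2:173152823-173153122, plus strand: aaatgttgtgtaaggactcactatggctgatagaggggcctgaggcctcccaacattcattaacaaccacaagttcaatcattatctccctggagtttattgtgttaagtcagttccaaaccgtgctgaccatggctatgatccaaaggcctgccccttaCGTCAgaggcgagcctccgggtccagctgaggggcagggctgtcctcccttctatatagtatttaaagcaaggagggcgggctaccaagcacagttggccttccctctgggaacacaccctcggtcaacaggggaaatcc
G6pc promoter, chr11:101367466-101367765, plus strand: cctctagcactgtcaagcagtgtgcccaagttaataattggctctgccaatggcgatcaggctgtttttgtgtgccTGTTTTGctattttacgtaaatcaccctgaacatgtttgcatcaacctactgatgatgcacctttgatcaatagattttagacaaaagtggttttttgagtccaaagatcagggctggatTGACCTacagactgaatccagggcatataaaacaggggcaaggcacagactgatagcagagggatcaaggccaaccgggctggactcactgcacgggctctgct
Slc2a2 promoter, chr3:28697653-28697952, plus strand: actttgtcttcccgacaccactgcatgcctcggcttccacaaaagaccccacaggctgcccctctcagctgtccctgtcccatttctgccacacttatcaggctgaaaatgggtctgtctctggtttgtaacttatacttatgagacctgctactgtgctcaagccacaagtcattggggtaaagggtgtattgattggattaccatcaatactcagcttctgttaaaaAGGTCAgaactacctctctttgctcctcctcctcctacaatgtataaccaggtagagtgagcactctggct
Slc37a4 promoter, chr9:44396696-44396995, plus strand: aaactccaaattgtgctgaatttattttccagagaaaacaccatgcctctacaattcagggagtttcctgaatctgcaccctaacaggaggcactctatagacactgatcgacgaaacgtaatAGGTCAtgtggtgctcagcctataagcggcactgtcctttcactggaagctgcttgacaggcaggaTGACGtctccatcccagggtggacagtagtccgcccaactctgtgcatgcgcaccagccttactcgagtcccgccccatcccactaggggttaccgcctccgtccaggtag

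The single match in the Pck1 window was a cAMP half-site on the minus strand that began 90 bases before the start site. The half-site was present in 20.8% of all 32851 RefSeq windows of that length, and the full element in 1.79%. The G6pc window held the insulin core 174 bases and a nuclear receptor half-site 54 bases before the start, both on the minus strand, and these motifs occurred in 6.28% and 16.3% of all windows. Slc2a2 had 1 nuclear receptor half-site on the plus strand, 21 bases before its start. Slc37a4 had a nuclear receptor half-site 127 bases and a cAMP half-site 61 bases before its start, both on the plus strand. The E-box was in 7.15% of all windows and in 1 of the 16, the first Pcx window, and the forkhead motif was in 3.65% of all windows and in none of the 16. These matches describe letters in short windows and were not tested for binding.

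The first question was whether the loss of THRB changed the level of these transcripts. In the fit that adjusted for sampling time, 0 of the 9 genes differed between the genotypes at an edgeR quasi-likelihood adjusted p under 0.05, against 0.950% of all genes tested (171 of 17994). None of the 9 passed an unadjusted p of 0.05 either, where 2169 genes did. With the times pooled, 0 of 9 were called against 0.361% of all genes (65), and in the test of whether the genotype effect changed with time, 0 of 9 were called, as were 0% of all genes. DESeq2's likelihood ratio test of the interaction also called 0 genes. The edgeR interaction had 484 genes at an unadjusted p under 0.05, none of them a member. The median log2 fold change of the 9 genes was 0.0458 against -0.00112 over all genes, and the median absolute change 0.0514 against 0.0733.

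**Figure D1:**
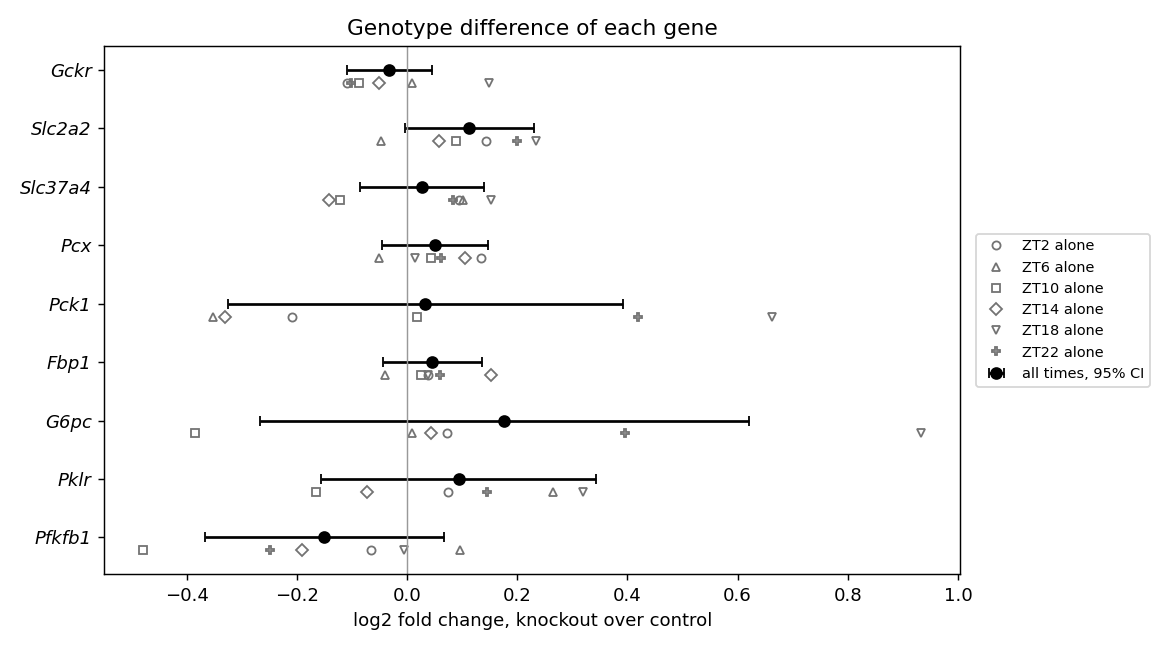
Log2 fold change of each gene, knockout over control, on the horizontal axis. Black points with 95% confidence intervals are the fits over all 36 libraries adjusted for time, open grey symbols are the 6 single times with 3 mice per genotype, and every black interval spans 0.

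How much of a change these data leave possible differed from gene to gene. Gckr had the narrowest 95% interval, which put the knockout level at 0.927 to 1.03 times that of control livers. The intervals of Fbp1 (0.970 to 1.10 times) and Pcx (0.969 to 1.11 times) were similarly tight. By contrast, G6pc was bounded only between 0.831 and 1.54 times and Pck1 between 0.798 and 1.31 times, and these transcripts also varied most between mice of the same group. The log2 fold change of G6pc behind its interval was 0.18, and it moved to 0.083 without knockout mouse b of ZT2 and to 0.39 without control mouse a of ZT10, with no call in any of the 36 fits that left out 1 library.

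The plot of CPM by time of day gives all mice, and gene positions below are those of the count table on GRCm38.

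**Figure D2:**
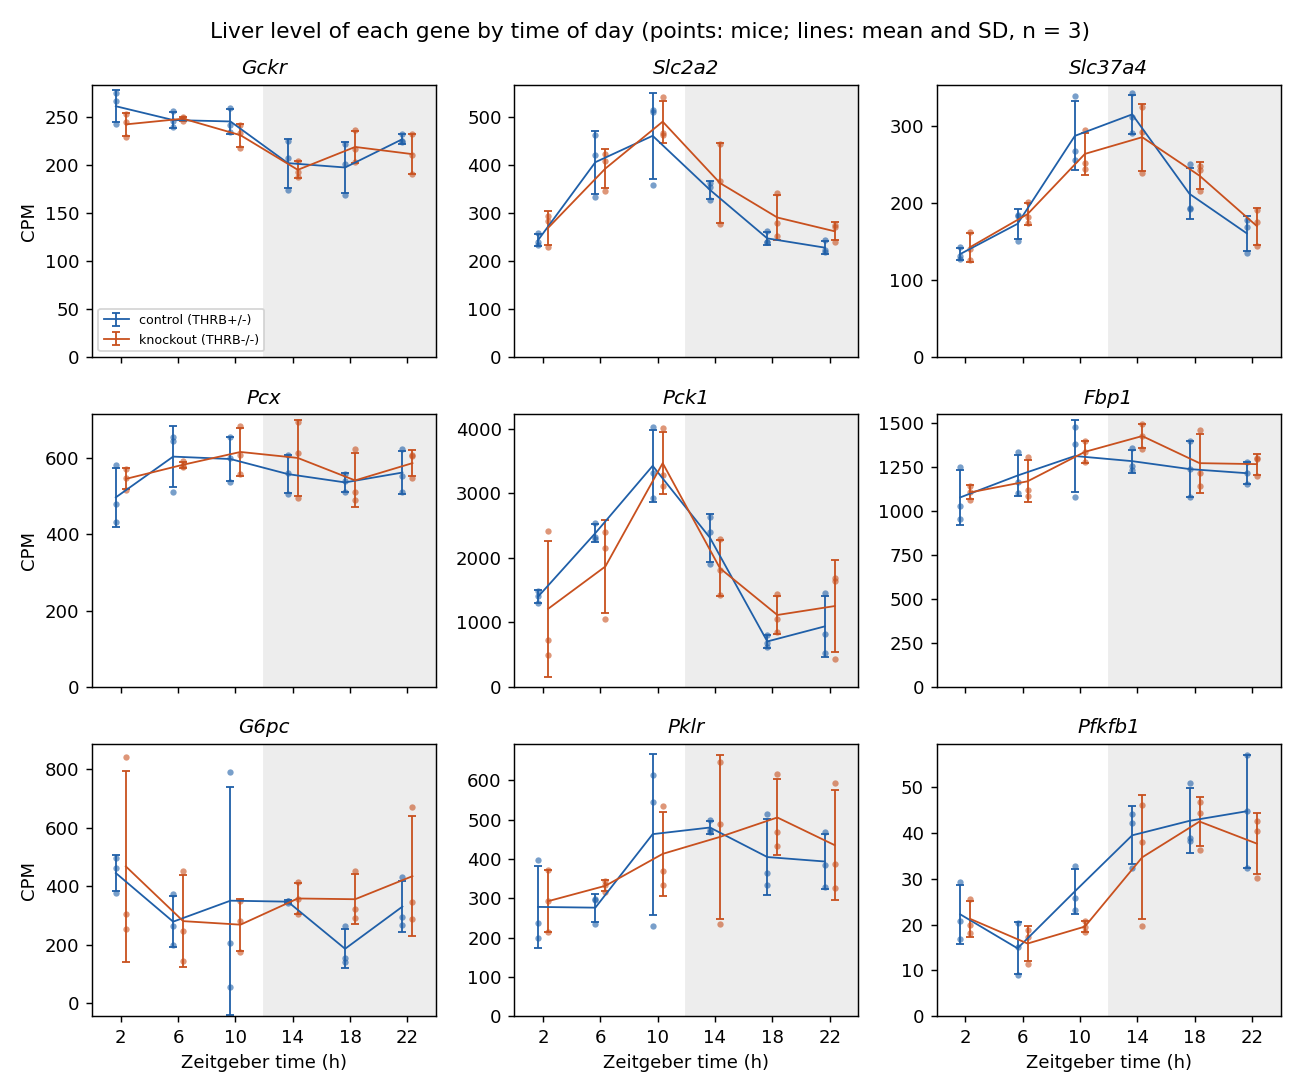
Levels of the 9 genes in CPM against zeitgeber time in hours, with each mouse as a point and lines for the mean and SD of 3 mice (control blue, knockout orange; dark phase shaded). Slc2a2, Slc37a4 and Pck1 rose in the light phase and peaked at ZT10 or ZT14 in both genotypes, while G6pc scattered most at ZT10 in control and at ZT2 in knockout livers.

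Among the regulators, Gckr (ENSMUSG00000059434, chr5:31297443-31327314) varied little. In control livers it was highest at ZT2 with 242, 266 and 274 CPM and lowest at ZT18 with 201, 169 and 221 CPM, and these ranges did not overlap. In knockout livers the highest mean fell at ZT6 (249, 245 and 249 CPM) and the lowest at ZT14 (204, 193 and 187 CPM). A 24-h curve gave an amplitude of 0.20 with a peak at ZT4.49 (adjusted p = 0.00378) in control and an amplitude of 0.14 with a peak at ZT4.45 (adjusted p = 0.0202) in knockout livers, where amplitude is the distance from the mean to the peak of the fitted curve in log2 units. The genotype difference was -0.032 (SE 0.038, 95% interval -0.11 to 0.045, adjusted p = 0.804).

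For glucose transport, Slc2a2 (ENSMUSG00000027690, chr3:28697903-28731359) was one of the most regularly cycling members. Control livers had 233, 258 and 239 CPM at ZT2, 509, 514 and 358 CPM at ZT10 and 243, 219 and 222 CPM at ZT22. Knockout livers had 228, 284 and 295 CPM at ZT2, 540.1, 463 and 466 CPM at ZT10 and 240.0, 271 and 275 CPM at ZT22. In both genotypes every ZT10 liver stood above every ZT22 liver. The curve gave an amplitude of 0.54 with a peak at ZT9.57 (adjusted p = 1.99e-06) in control and an amplitude of 0.44 with a peak at ZT9.97 (adjusted p = 1.53e-04) in knockout livers, equal to peaks 2.12 and 1.84 times the troughs.

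Slc2a2 had the smallest unadjusted p of the 9 in the genotype test (0.0584), with a log2 difference of 0.11 (SE 0.058, 95% interval -0.0043 to 0.23, adjusted p = 0.436). The knockout mean was the higher at 5 of the 6 times, all but ZT6. This difference did not pass the threshold, and the interval reached from just under no change to a knockout level 1.17 times that of control livers.

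Slc37a4 (ENSMUSG00000032114, chr9:44396852-44402968), the glucose-6-phosphate translocase, peaked some hours later than Slc2a2. Control livers rose from 143, 132 and 128 CPM at ZT2 to 312, 292 and 343 CPM at ZT14, and knockout livers from 140.2, 164 and 126 to 293, 326 and 239 CPM. The ranges of these times were well apart in both genotypes. It had an amplitude of 0.62 with a peak at ZT13.0 (adjusted p = 6.13e-07) in control and an amplitude of 0.50 with a peak at ZT13.4 (adjusted p = 5.54e-06) in knockout livers, the smallest adjusted p among the 9 genes in each genotype. Its genotype difference was 0.027 (SE 0.055, 95% interval -0.085 to 0.14, adjusted p = 0.898).

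Among the gluconeogenic enzymes, Pck1 (ENSMUSG00000027513, chr2:173153048-173159273) showed the widest daily swing. In control livers it rose from 1409.6, 1487 and 1293 CPM at ZT2 to 4031, 3317 and 2931 CPM at ZT10 and fell to 685, 809.6 and 614 CPM at ZT18. In knockout livers it went from 723, 2416 and 487 CPM at ZT2 to 3109.8, 3278 and 4017 CPM at ZT10 and 846, 1054 and 1441 CPM at ZT18. The ZT10 means were 3426 ± 558 CPM (SD, n = 3) in control and 3468 ± 483 CPM (SD, n = 3) in knockout livers, with overlapping ranges. At ZT2, the control mice lay close together whereas knockout mouse b stood more than 3 times above the other two.

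The Pck1 curve had an amplitude of 1.06 with a peak at ZT8.98 (adjusted p = 8.54e-06) in control and an amplitude of 0.72 with a peak at ZT9.77 (adjusted p = 0.0289) in knockout livers. Tested as 6 separate times in place of a curve, Pck1 varied with time in control livers (adjusted p = 2.73e-05) but did not pass in knockout livers (adjusted p = 0.117). The difference in amplitude itself was tested in a joint cosinor fit on variance-stabilised values and did not pass, with a knockout minus control value of -0.28 (SE 0.28, unadjusted p = 0.323). The difference in peak time did not pass either, at 1.37 h (SE 1.11, unadjusted p = 0.227).

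G6pc (ENSMUSG00000078650, chr11:101367561-101377903), which releases free glucose, had no 24-h rhythm that passed the threshold in either genotype. Its control curve had an amplitude of 0.27 with a peak at ZT4.84 (adjusted p = 0.674) and its knockout curve an amplitude of 0.36 with a peak at ZT22.2 (adjusted p = 0.293). At ZT10 the 3 control mice had 791, 206 and 54.0 CPM, a range wider than that between any time means, whereas at ZT14 they had 349, 350.5 and 341 CPM. Knockout mice had 255, 842 and 305 CPM at ZT2 and 413, 356 and 305 CPM at ZT14, and lay closest together at ZT14, as control mice did. The largest single-time difference of any member was G6pc at ZT18, where control mice had 141, 154 and 263 CPM and knockout mice 321, 291 and 453 CPM. The groups did not overlap, but the log2 difference of 0.93 (SE 0.55, 95% interval -0.19 to 2.05, adjusted p = 0.968) did not pass the test.

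Pcx (ENSMUSG00000024892, chr19:4510472-4621752) and Fbp1 (ENSMUSG00000069805, chr13:62864753-62888282), the first and a later enzyme of gluconeogenesis, were flat by comparison. Over all 18 livers of a genotype, Pcx ranged from 431 to 657 CPM (median 556) in control and from 490.4 to 695 CPM (median 578) in knockout livers. It had an amplitude of 0.08 with a peak at ZT9.78 (adjusted p = 0.477) in control and an amplitude of 0.06 with a peak at ZT10.5 (adjusted p = 0.601) in knockout livers, and neither passed. Fbp1 ranged from 952 to 1474 CPM (median 1236) in control and from 1064 to 1493 CPM (median 1286) in knockout livers. Its curve passed in knockout livers, with an amplitude of 0.15 with a peak at ZT14.4 (adjusted p = 0.0211), and missed the threshold in control livers, with an amplitude of 0.11 with a peak at ZT13.4 (adjusted p = 0.266), although the difference in amplitude between the genotypes was only 0.046 (SE 0.065, unadjusted p = 0.484). Their genotype differences were 0.051 (SE 0.047, 95% interval -0.045 to 0.15, adjusted p = 0.733) for Pcx and 0.046 (SE 0.044, 95% interval -0.045 to 0.14, adjusted p = 0.750) for Fbp1.

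On the glycolytic side, both members had fitted peaks in the dark phase. Pklr (ENSMUSG00000041237, chr3:89136142-89146784) had 235, 297 and 296 CPM in control livers at ZT6 and 469, 473 and 498 CPM at ZT14. Knockout livers had 335, 317 and 344 CPM at ZT6 and 489, 645 and 234 CPM at ZT14, where 1 mouse stood at less than the ZT6 values. It had an amplitude of 0.40 with a peak at ZT14.9 (adjusted p = 0.0425) in control and an amplitude of 0.36 with a peak at ZT16.3 (adjusted p = 0.0752) in knockout livers, which fell on either side of the threshold, and the difference in amplitude was -0.076 (SE 0.19, unadjusted p = 0.694). The genotype difference of Pklr was 0.094 (SE 0.12, 95% interval -0.16 to 0.34, adjusted p = 0.827).

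Pfkfb1 (ENSMUSG00000025271, chrX:150588229-150643878) was the least abundant member and had the second widest curve in control livers. In knockout livers its amplitude and that of Pck1 were close, at 0.75 and 0.72, and their order turned in the joint cosinor, at 0.71 and 0.84. Control livers held 9.04, 20.4 and 15.0 CPM at ZT6 and 39.0, 50.8 and 38.2 CPM at ZT18, and knockout livers 11.4, 18.8 and 17.3 and 36.4, 46.7 and 44.4 CPM. Every ZT18 liver was above every ZT6 liver in both genotypes. The curve gave an amplitude of 0.76 with a peak at ZT17.9 (adjusted p = 2.71e-04) in control and an amplitude of 0.75 with a peak at ZT18.4 (adjusted p = 4.33e-05) in knockout livers. Its genotype difference was -0.15 (SE 0.11, 95% interval -0.37 to 0.066, adjusted p = 0.623), the only one below 0 besides that of Gckr. At ZT10 the control mice had 32.8, 25.7 and 23.3 CPM and the knockout mice 20.8, 18.4 and 19.5 CPM, without overlap, and the log2 difference was -0.48 (SE 0.27, 95% interval -1.03 to 0.074, adjusted p = 1).

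The libraries did not mark strand, so that reads from exons that overlap on opposite strands cannot be told apart. Overlap was taken here between whole gene spans, and the shares below compare total counts and do not measure shared reads. Pfkfb1 overlaps Apex2, whose counts came to 26.7% of those of Pfkfb1, and Pklr overlaps Hcn3, with 13.3%. Overlapping genes of Pcx, Slc2a2 and Slc37a4 held at most 0.314% of the member's counts, and that of Slc37a4 lies on the same strand. Gckr, G6pc, Pck1 and Fbp1 overlapped no other gene of the table.

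Taking single times, 0 of the 54 pairs of gene and time passed, and none had an unadjusted p under 0.05. The background was 0.0278% of genes called at ZT2, 0.0111% at ZT6, 0.0167% at ZT10, 0.0167% at ZT14, 0.0222% at ZT18 and 0.0222% at ZT22. The 3 knockout and 3 control livers did not overlap in 4 of the 54 pairs (7.41%), against 9.96% of the 107964 pairs of gene and time over all genes. Besides G6pc at ZT18 and Pfkfb1 at ZT10, these were Pklr at ZT6 and Pck1 at ZT18. For Pck1 at ZT18 the log2 difference was 0.66 (SE 0.43, 95% interval -0.22 to 1.55, adjusted p = 0.989).

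The second question was how the daily rhythm of these genes compared between the genotypes. In control livers 6 of 9 members were called rhythmic, namely Gckr, Slc2a2, Slc37a4, Pck1, Pklr and Pfkfb1, against 33.0% of all genes tested (5936). In knockout livers 6 of 9 were called, with Fbp1 in and Pklr out, against 28.9% of all genes (5201). The 5 genes called in both were Gckr, Slc2a2, Slc37a4, Pck1 and Pfkfb1, against 3872 of all 17994 genes tested. G6pc and Pcx were called in neither. When the mice of one letter were dropped (a, b and c in turn), Slc2a2, Slc37a4 and Pfkfb1 were called each time in both genotypes and Pck1 each time in control livers, whereas the calls of Gckr, Pklr, Fbp1 and, in knockout livers, Pck1 were lost in at least 1 of these fits. The median amplitude of the 9 genes was 0.40 in control and 0.36 in knockout livers, against 0.22 and 0.21 over all genes.

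**Figure D3:**
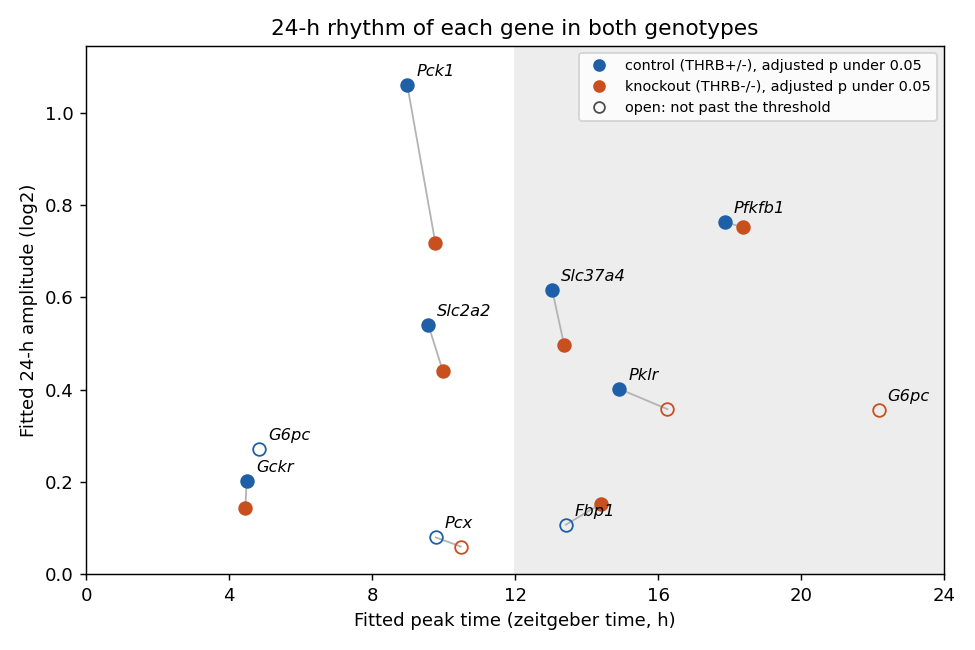
Fitted 24-h amplitude (log2) against fitted peak time (zeitgeber time, h) of each gene, with control in blue, knockout in orange and a grey line joining the 2 genotypes. Filled points passed an adjusted p of 0.05, and the peaks ran from Gckr in the early light phase through Pck1, Slc2a2 and Slc37a4 to Pklr and Pfkfb1 in the dark phase; for G6pc, which passed in neither genotype, no line is drawn.

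The order of the peaks among the 5 genes called in both genotypes was the same in each. In control livers Gckr peaked at ZT4.49, Pck1 at ZT8.98, Slc2a2 at ZT9.57, Slc37a4 at ZT13.0 and Pfkfb1 at ZT17.9. In knockout livers these times were ZT4.45, ZT9.77, ZT9.97, ZT13.4 and ZT18.4. Pck1 and Slc2a2 were neighbours in this order and did not differ beyond the error of their peak times, with standard errors of 0.668 and 0.458 h in control livers.

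The joint cosinor fit compared mesor (the fitted daily mean), amplitude and peak time directly. At an unadjusted p under 0.05, a mesor difference was found for 0 of 9 members (11.2% of all genes) and an amplitude difference for 0 of 9 (1.79%). A shift in peak time was found for 0 of the 5 members called rhythmic in both genotypes (4.55% of the 3872 such genes). The amplitude was lower in knockout livers for 7 of the 9 genes, with the widest differences in Pck1 (above) and in Slc37a4 at -0.11 (SE 0.079, unadjusted p = 0.158). The share of all genes with a lower knockout amplitude was not counted. By the separate curves, the median amplitude over all genes was 0.22 in control and 0.21 in knockout livers. For Slc2a2 the amplitude difference was -0.093 (SE 0.09, unadjusted p = 0.311) and for Gckr -0.062 (SE 0.054, unadjusted p = 0.259). In this fit the peaks of the 5 genes came later in knockout livers, by 0.34 h (SE 0.55, unadjusted p = 0.536) for Slc37a4, 0.33 h (SE 0.72, unadjusted p = 0.651) for Slc2a2, 0.64 h (SE 0.85, unadjusted p = 0.456) for Pfkfb1 and 0.072 h (SE 1.24, unadjusted p = 0.954) for Gckr, and none of these shifts passed an unadjusted p of 0.05. For Gckr the separate fits of each genotype gave the opposite order, ZT4.49 in control and ZT4.45 in knockout livers. The study reports a slight phase delay in knockout livers over the genes it found rhythmic in both genotypes. A later peak was thus not limited to these 5 genes. Without the mice of 1 letter, the direction of the amplitude difference turned for Pck1, Pcx, Pklr, Pfkfb1 and G6pc, and that of the peak shift for Gckr, Slc2a2 and Pfkfb1.

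Levels averaged over all times were ordered per kilobase of gene length, and the order was the same in both genotypes except that Pcx and Pklr changed places. In control livers Fbp1 stood at 717 ± 81.9 and Pck1 at 542 ± 295 CPM per kb (mean ± SD, n = 18), a gap within the spread of Pck1. G6pc at 134 ± 68.2, Pcx at 121 ± 13.6 and Pklr at 118 ± 37.8 CPM per kb followed and did not differ beyond their spread. Slc37a4 at 75.0 ± 25.4, Slc2a2 at 56.0 ± 17.3 and Gckr at 53.0 ± 6.56 CPM per kb formed the next group, again within their spread, and Pfkfb1 was lowest at 7.93 ± 3.26 CPM per kb. The SD over 18 livers also holds the change over the day, so levels can stand apart at a single time. At ZT14 control livers had 111 ± 9.02 CPM per kb of Slc37a4 and 46.5 ± 5.85 of Gckr (SD, n = 3). In knockout livers Fbp1 had 741 ± 79.1, Pck1 522 ± 292 and Pfkfb1 7.12 ± 2.96 CPM per kb. The order changed over the day. At ZT10 the mean of Pck1 was above that of Fbp1, at 999 against 771 CPM per kb in control livers, where their ranges overlapped, and 1011 against 784 in knockout livers, where they did not. At ZT18 the control mean of G6pc was 77.1 CPM per kb, below the 116 of Pcx.

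The members also differed in how much mice of the same genotype and time varied. The SD within groups on the log2 CPM scale, over 24 residual degrees of freedom, was 0.750 for G6pc and 0.588 for Pck1. These values lay at percentiles 98.5 and 97.3 among 11918 genes with a mean of at least 50 counts, whose median SD was 0.174. Pklr (0.430) and Pfkfb1 (0.364) were also wide, while Gckr was at 0.108, the percentile 14.4. Differences between mice of 1 group made up 71.2% of the total sum of squares of G6pc, but only 11.1% of that of Slc37a4 and 15.4% of that of Slc2a2.

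**Figure D4:**
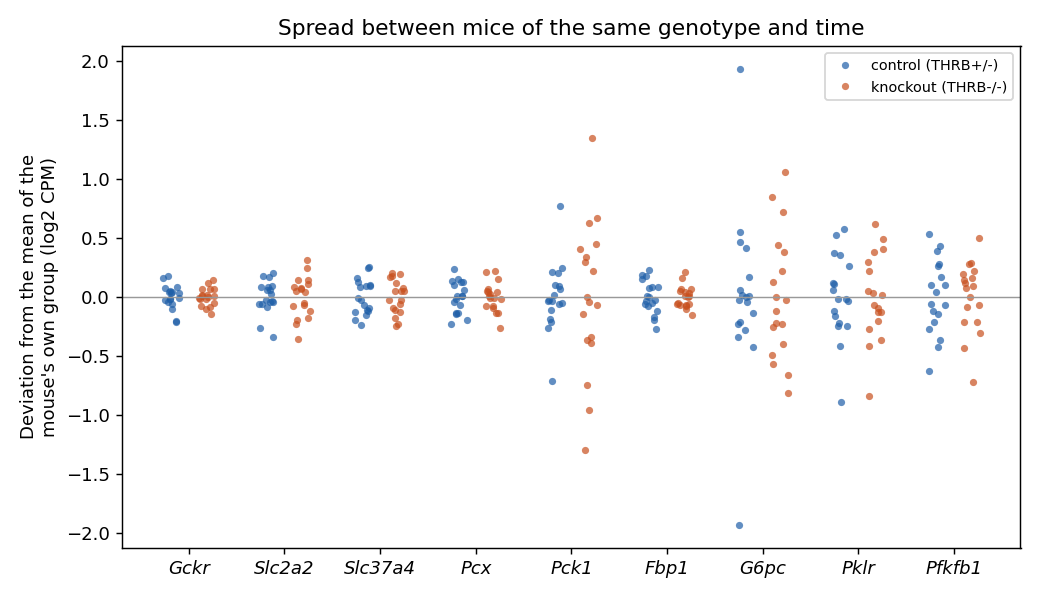
Deviation of each liver from the mean of its own group of 3, in log2 CPM, for the 9 genes (18 control livers in blue, 18 knockout livers in orange; horizontal position within a genotype is arbitrary). Pck1 and G6pc scatter far more than Gckr, Fbp1 or Pcx, and the most distant points are 2 control livers of ZT10 for G6pc.

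For Pck1 the spread was 0.347 within control groups and 0.757 within knockout groups, and for G6pc 0.852 and 0.631. The difference in spread between the genotypes was not tested. After the mean of each group was removed, 34 of the 36 pairs of members had a positive correlation over the 36 livers, with a median r of 0.41. The strongest was between Slc2a2 and Pklr (r = 0.78, rho = 0.74, and r = 0.68 without the 2 livers farthest from the median of Slc2a2). G6pc and Pck1 had r = 0.51 and rho = 0.52. These correlations are descriptions, since values of a liver share its library and the 12 group means were taken out. The same share over other pairs of genes is not given, so nothing here marks it as particular to the members.

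Across all 36 libraries, the genes most like each member were named by Pearson's r of log2 CPM over the 11918 genes, as a description that includes the shared daily rhythm. Slc2a2 was most like Rgs16 (r = 0.94, rho = 0.94), Ugp2 (r = 0.93, rho = 0.91) and Bbox1 (r = 0.90, rho = 0.91). Slc37a4 was most like Dnajb6 (r = 0.92, rho = 0.92), St3gal5 (r = 0.91, rho = 0.92) and Homer2 (r = 0.91, rho = 0.89). Pck1 was closest to Nfkbia (r = 0.86, rho = 0.87), Tcf25 (r = 0.83, rho = 0.84) and Gne (r = 0.83, rho = 0.81), where Nfkbia encodes the inhibitor of NF-kappa-B. The genes closest to Pklr included Acaca (r = 0.87, rho = 0.86) and Gm35986 (r = 0.83, rho = 0.84), of which Acaca makes malonyl-CoA for fatty acid synthesis. For Pcx these were Pdha1 (r = 0.87, rho = 0.84), Sdha (r = 0.81, rho = 0.81) and Ptgr2 (r = 0.80, rho = 0.78), of which Pdha1 is a subunit of pyruvate dehydrogenase and Sdha one of succinate dehydrogenase. For Gckr they were Nipsnap1 (r = 0.86, rho = 0.85), Nit2 (r = 0.83, rho = 0.83) and Amdhd1 (r = 0.82, rho = 0.83). For Fbp1 they were Atp5a1 (r = 0.82, rho = 0.79), Gbe1 (r = 0.78, rho = 0.76) and Etnppl (r = 0.77, rho = 0.74). For Pfkfb1 they were Nat8f5 (r = 0.88, rho = 0.85), AC161607.1 (r = 0.88, rho = 0.87) and Fgf1 (r = 0.87, rho = 0.85). G6pc had the weakest likeness, to Gm43314 (r = 0.69, rho = 0.65), Arl4d (r = 0.68, rho = 0.63) and Tsn (r = 0.67, rho = 0.47).

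Of 63 other genes of the pathway (24 enzymes, 18 genes of substrate entry and 21 regulators), 62 were tested. In the genotype test adjusted for time, 1 was higher and 1 was lower in knockout livers, and 60 did not pass, against 0.950% of all genes called. Foxo1, the forkhead factor that insulin inactivates and that drives G6pc and Pck1, was higher by 0.19 on the log2 scale (SE 0.043, edgeR adjusted p = 0.0215). Gpt, the alanine aminotransferase that feeds alanine carbon into gluconeogenesis, was lower, with a log2 fold change of -0.18 (SE 0.046, adjusted p = 0.0454). The list had a median log2 fold change of 0.029, and none of the 23 enzymes tested was called.

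Mean Foxo1 levels over all times were 26.1 ± 6.21 CPM in control and 29.5 ± 5.37 CPM in knockout livers (SD, n = 18). Those of Gpt were 321 ± 41.9 CPM and 283 ± 36.2 CPM. The fitted daily peak of Foxo1 was 1.68 times its trough in control livers, a wider range than its difference between the genotypes. With each of the 36 libraries left out in turn, Foxo1 passed in 36 of 36 fits (adjusted p 0.00728 to 0.0406) and Gpt in 12 (adjusted p 0.0266 to 0.0773), so that single libraries decided the call of Gpt. With 12 libraries dropped at a time, all those of 1 letter, neither gene passed (adjusted p 0.129 to 0.261 for Foxo1 and 0.115 to 0.441 for Gpt), while the log2 fold changes were 0.18 to 0.19 for Foxo1 and -0.20 to -0.16 for Gpt. With times pooled neither passed (edgeR adjusted p = 0.750 for Foxo1 and 0.344 for Gpt), and without the count minimum Gpt did not pass (0.0683).

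The rhythm test called 31 of these 62 genes in control livers and 30 in knockout livers, against 33.0% and 28.9% of all genes tested. In both genotypes it called 22 of the 62, against 3872 of all 17994 genes tested. By role, 7 of 23 enzymes, 10 of 18 genes of substrate entry and 14 of 21 regulators were called in control livers, and 12, 7 and 11 in knockout livers. In control livers the share of enzymes called, 30.4%, was close to that of all genes, and the other shares were 55.6% and 66.7%. The knockout shares were 52.2% of enzymes, 38.9% of genes of substrate entry and 52.4% of regulators. The widest control curves were those of Pfkfb3, another fructose-2,6-bisphosphate enzyme (amplitude 1.36, peak ZT11.7), and Nr0b2, the bile acid responsive repressor SHP (0.77, ZT3.46). In knockout livers their amplitudes were 1.30 and 0.68. The change in the number called from one genotype to the other was not tested.

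**Figure D5:**
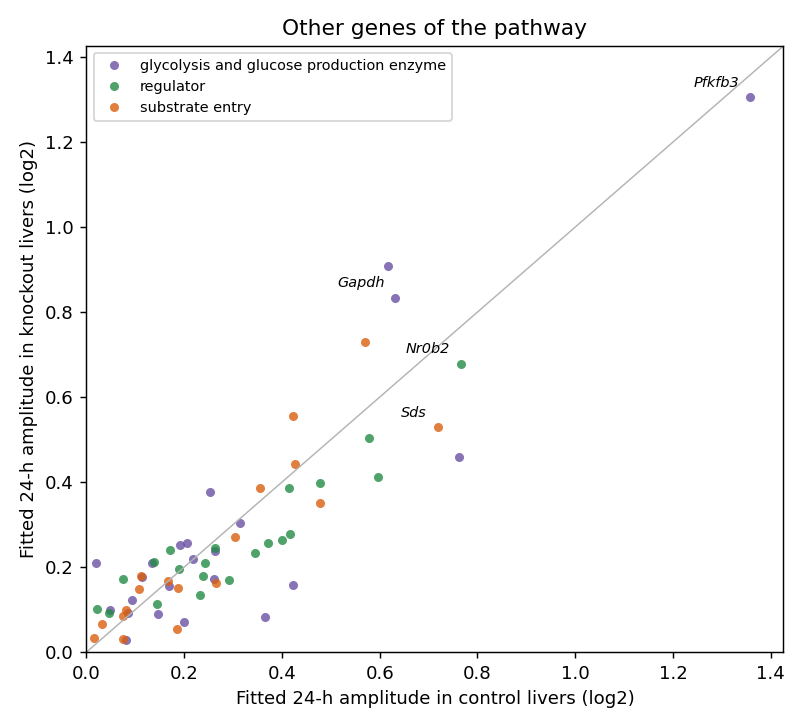
Fitted 24-h amplitude (log2) in control livers (horizontal axis) against knockout livers (vertical axis) for the 62 other genes of the pathway, coloured by role, with the line of equal amplitude. Pfkfb3 has the largest amplitude in both genotypes, at 1.36 and 1.30, and most other genes lie below 0.8.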

How the data were processed

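Liver RNA of 36 mice was sequenced by the study as paired-end, poly-A selected, non-directional libraries. Per the methods, the authors mapped reads to GRCm38/mm10 with HISAT2 and counted them per gene with featureCounts, and deposited 1 table of raw counts (54532 genes). Versions are not given in the sources used here. No column of other per-sample values was left out.

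The counts were analysed with edgeR 4.0.16 in R 4.3.3: TMM library sizes, a count sum of at least 100, and the quasi-likelihood test (glmQLFit, glmQLFTest) with Benjamini-Hochberg adjustment over 17994 genes and a threshold of 0.05. Terms were time as a factor and genotype, genotype alone, their interaction, the 12 groups with contrasts at each time, or, per genotype, a sine and a cosine of 24 h. A joint cosinor on variance-stabilised values (DESeq2 1.42.0, 30 residual degrees of freedom) compared mesor, amplitude and peak time, with unadjusted p as the study used. The 24-h period and the count filter follow the study's methods, but mesor and amplitude were compared here for all 17994 genes and not only for those found rhythmic. Log2 CPM used a prior count of 2, and levels between genes are CPM per kilobase of the gene length in the table. Intervals are 95%. No 2 libraries held identical counts over all genes. In the fits for single times and for the interaction, p-values rest on the spread between samples within groups, pooled over the 12 groups. A contrast at a single time thus uses the spread at all times and not only that of its own groups of 3. With time and genotype as separate terms, the residual also holds any change of the genotype effect with time. With times pooled it holds the variation over the day, and in the curve fits any departure from a 24-h curve. Tests were checked on simulated counts. Alternatives were DESeq2's size factors and tests, other count filters, robust estimation, a letter block, and leaving out letters or libraries.

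The 9 genes, the list of 63 pathway genes (without Aldoa, whose symbol occurs more than once, in the tests), the marker lists and the motifs were chosen with earlier results of these data known. Named were the 9 genes, list genes called between genotypes, the 3 list genes of largest control amplitude, the 3 genes most like each member, and Thrb and Dio1; some items that this rule names are not reported here. Figures were drawn with matplotlib 3.10.9, and promoters are RefSeq windows.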

Additional observations from a re-analysis of the deposited data

How the results depend on the processing

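None of the 9 genes was called between the genotypes, adjusted for time, pooled, by interaction or at single times, under any alternative run: DESeq2 size factors, filterByExpr, no filter beyond a count sum of 1, DESeq2 tests, robust estimation, leaving out the mice of each letter, leaving out each of the 36 libraries (time-adjusted test), and, for single times, fits of 6 libraries. The same held for mesor, amplitude and peak time.

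Counts over all genes moved more. For genotype adjusted for time (main 171), 40 to 236 genes were called without a letter or library, the lowest without replicate a, and 306 by the DESeq2 likelihood ratio test. With times pooled (main 65), these were 16 to 24 and, by DESeq2, 99. For single times (main 21 pairs), 43 were called with no filter, 52 by DESeq2 and 7 to 18 without a letter. Rhythm calls without a letter fell to between 3109 and 4005 in control and 2343 and 3192 in knockout livers, and mesor differences to between 1244 and 1978 (main 2011). Fits without a letter hold 24 livers, or 12 of 1 genotype, in place of 36 or 18. For the DESeq2 and filter changes the cause was not tested.

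Among the members, knockout rhythm calls fell from 6 to between 3 and 4 without a letter, 3 being the count without replicate a. Pck1 in knockout livers failed without a (adjusted p = 0.156) and c (0.262). Pklr in control livers failed without each letter, in a cosinor F test on log2 CPM (0.0741) and with sampling time as a factor (0.148). Fbp1 in knockout livers failed without each letter and with time as a factor (0.0986). Gckr in knockout livers failed without each letter but passed with time as a factor (0.0399). In control livers Gckr failed without b (0.0514). Pklr in knockout livers passed without c (0.0147).

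None of the values that turned sign passed its threshold. Without a letter or library, the time-adjusted log2 fold change ran from -0.13 to 0.13 for Pck1 and -0.0077 to 0.057 for Slc37a4, and the pooled one from -0.10 to 0.020 for Pck1 and -0.037 to 0.028 for Slc37a4. Without a letter, mesor differences ran from -0.058 to 0.0030 for Gckr, -0.0024 to 0.052 for Slc37a4 and -0.18 to 0.0022 for Pck1. Amplitude differences ran from -0.23 to 0.023 for G6pc, -0.092 to 0.027 for Pfkfb1, -0.61 to 0.14 for Pck1, -0.067 to 0.028 for Pcx and -0.21 to 0.080 for Pklr. Peak shifts ran from -0.95 to 0.78 h for Gckr, -0.21 to 0.64 h for Slc2a2 and -0.15 to 1.20 h for Pfkfb1.

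Letters a, b and c are shared by the genotypes at each time. Of the 18 pairs of equal letter, 16 had deviations correlated above 0.1 (r from -0.073 to 0.40, median 0.22). The labels do not say what a letter marks, so the main tests did not pair mice by letter. Whatever livers of equal letter shared is therefore part of the spread between mice in those tests. A block for letter and time raised the genes called from 171 to 387, called 0 members, kept Foxo1 (adjusted p = 0.0142) and Gpt (0.0131) called, and turned Pck1 to -0.067, and in the interaction test it called 0 genes. Of the 36 livers, 33 correlated best with the liver of their own letter, and the library numbers of control and knockout mice lay within 10 of each other in 15 of the 18 pairs of equal letter and in 2 of the 36 pairs of other letters at the same time. These are hints, since the labels do not say that a letter or number marks a shared litter, batch or day.

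The depth gave every member at least 264 counts per library, so counting error was small, and the limit was 3 mice per group and the spread between them, widest for G6pc and Pck1. The 18 livers per genotype bound Gckr, Fbp1 and Pcx tightly, but not a single-time change of G6pc or Pck1. The number of mice sets how small a rhythm difference could pass, and an adjusted p above the threshold does not show equal rhythms.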
